A study of Mus musculus with 9 samples.

Results

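The genes described here lie on mouse chromosome 9 between 65 and 70 Mb of the mm9 build, and were taken as every non-control probe of the array whose annotated position falls in that window, leaving out names that start with Rpl, Rps, Kcn, Psm, Nduf or Mrp (0 probes in the window carried such a name). The window held 96 probes with 67 gene names, of 39429 probes with 31093 names on the whole array. RNA came from the hippocampus of 9-month-old male mice of 3 genotypes, with 1 array per mouse and 3 mice per genotype. IF1 is the inhibitory factor of the mitochondrial ATP synthase, encoded by *Atpif1*. IF1-KO mice carry a floxed *Atpif1* allele (derived from the tm1a allele) deleted by Cre recombinase under the *Camk2a* promoter, so that the deletion is limited to forebrain excitatory neurons and other hippocampal cells keep the gene. IF1-TG mice carry human IF1 under a tetracycline operator together with a tetracycline transactivator driven by the *Camk2a* promoter. CRL mice are the controls, whose alleles the labels do not list, and all 3 groups are labelled C57BL/6J. The window was selected on the differences of IF1-TG from CRL and IF1-KO mice in an earlier reading of these data, so those differences are given as a description and support nothing by themselves. The 5 Mb on either side, from 60 to 65 Mb and from 70 to 75 Mb, serve for comparison.

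Neighbouring genes on a chromosome need not share a function. Genes of many kinds lie side by side here, among them *Clpx*, the unfoldase that feeds the ClpP protease of the mitochondrial matrix, *Rora*, a nuclear receptor required for cerebellar Purkinje cell development, *Herc1*, a giant ubiquitin ligase, *Tln2*, which links integrins to actin, and *Aph1b*, a subunit of the gamma-secretase that cleaves the amyloid precursor protein and Notch. Of the 67 names, 46 matched a gene of the RefSeq GRCm38.p6 annotation, 44 of them protein coding.

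The arrays are named here by genotype and replicate, as KO1 to KO3, CRL1 to CRL3 and TG1 to TG3. They were spread over 3 slides, with TG1 and TG2 on slide 1, the array labelled KO1 together with CRL1, CRL2 and TG3 on slide 2, and KO2, KO3 and CRL3 on slide 3. Genotype and slide are therefore partly confounded, and slide 2 carried arrays labelled with all 3 genotypes. The share of spots well above background was lowest on the IF1-TG arrays, 67.4% to 70.4%, against 71.9% to 73.6% on the IF1-KO arrays and 73.0% to 75.6% on the CRL arrays. *Atpif1* itself (chr4:132086507-132086566) reached a log2 signal of 5.20 in KO2 and 5.53 in KO3, while KO1, the array so labelled, reached 6.43, above the range of the CRL arrays (6.19 to 6.34). The IF1-TG arrays TG1 to TG3 gave 6.42, 6.38 and 6.51 at this probe, also above the CRL arrays, and KO1 lay within their range. The targeted gene thus goes against the label of KO1, and counts without KO1 are given beside those of the comparisons it enters. All 8 listed markers of hippocampal neurons were detected, and their summed linear signal overlapped between genotypes (22.1 to 24.4 in IF1-KO, 24.0 to 24.9 in CRL and 22.1 to 26.6 in IF1-TG). Summed markers of choroid plexus ranged from 2.15 to 182 across single arrays of all genotypes. Those of thalamus ran from 3.16 to 4.2 in IF1-KO, 3.27 to 4.40 in CRL and 3.04 to 11.2 in IF1-TG mice. Whether such differences in dissected tissue take part in the values below was not tested, and in whole hippocampus fewer cells of a type and less RNA per cell cannot be told apart.

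Each probe of the array is a 60-base oligonucleotide. The last 30 bases of a probe, or the 30 bases around the letters AATAAA where the probe holds them, are shown 5′ to 3′ on the mRNA strand for the genes the comparisons turn on, since several of these genes have a second probe that gave another value. Capitals mark AATAAA, the polyadenylation signal of most mRNAs, as a string match only. It was present in 15 of 77 kept probes of the window (19.5%) and in 13.6% of the 27991 kept probes of the array.
Spg21 A_52_P219966 (chr9:65328217-65328246, plus strand): aaaatcgttttggggaacttttcctctggc
Spg21 A_55_P2062637 (chr9:65336220-65336249, plus strand): tacaggtatgtatacagtaacaaagaggtt
Pif1 A_51_P467448 (chr9:65442975-65443004, plus strand): cctgtcttattacaccgcatgtatttattt
D930001M23Rik A_55_P2154467 (chr9:68634160-68634189, plus strand): cagttaaacttgctccgagctaagaaaaac
Csnk1g1 A_65_P13270 (chr9:65890834-65890863, plus strand): tatgttaaagtggttgctaaggatcatagc
Csnk1g1 A_55_P2016685 (chr9:65892778-65892807, plus strand): ttttgtatgtaaAATAAAatgtcctacctt
Herc1 A_51_P167426 (chr9:66220297-66220326, plus strand): acatttcttaaaggagtaactattcccaat
Herc1 A_55_P2159600 (chr9:66356547-66356576, plus strand): cttatgcagagaAATAAAgcagattcagga
Unnamed A_55_P2159595 (chr9:66358778-66358807, plus strand): cAATAAAttaaggaacctgtggatagggat
C2cd4b A_55_P2054261 (chr9:67608698-67608727, plus strand): cccttttgtacaaAATAAAagttatttatt
C2cd4b A_51_P415395 (chr9:67608595-67608624, plus strand): ccttgagatgcacagagactcttggccctc
C2cd4a A_55_P2147896 (chr9:67678614-67678643, minus strand): ggccgtgcgcatcaaggcggagagcaaggg
C2cd4a A_55_P2147897 (chr9:67678674-67678703, minus strand): ggccgccctggaccaggactgctgctttga
Clpx A_51_P304683 (chr9:65177833-65177862, plus strand): aagataagaatcggatcatgtatattactg

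Compared with CRL mice, 12 of the 52 detected genes of the window had a probe past the thresholds of the study in IF1-TG mice, 6 higher and 6 lower, with log2 differences between -0.84 and 0.93. The lower group held *Spg21*, *Clpx*, *Fbxl22*, *C2cd4a*, *C2cd4b* and the transcript ENSMUST00000117246. The higher group held *Pif1*, a dim probe of *Herc1*, and 4 transcripts or probes without a current gene name. A probe passed when its fold change was at least 1.5 (0.58 on the log2 scale) with an unadjusted limma P value below 0.05. By probes, 13 of 77 passed (6 higher, 7 lower), beside 4.47% of all 27991 tested probes (2.24% higher and 2.22% lower) and 5.59% of all gene names. The median log2 difference over the 77 probes was 0.00, as it was over all probes, with 38 probes on the higher side and 39 on the lower. The IF1-TG and CRL arrays did not overlap at 10 of the 77 probes (6 higher, 4 lower), beside 12.2% over the array (6.84% higher and 5.37% lower). At an unadjusted limma P value alone 13 of the 77 probes passed, beside 8.52% over the array. None of the 77 had a Benjamini-Hochberg adjusted P value below 0.05 in limma, and over the array 1 probe (0.00357%) passed the adjustment.

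Compared with IF1-KO mice, 4 of the 52 genes passed in IF1-TG mice, 3 higher (*Pif1*, *Csnk1g1* and D930001M23Rik) and 1 lower (*Spg21*). That is 4 of 77 probes, beside 3.77% of all probes (1.73% higher and 2.05% lower) and 4.7% of all gene names (2.15% higher and 2.56% lower). Arrays did not overlap at 11 probes (7 higher, 4 lower), beside 13.6% over the array (8.36% higher and 5.21% lower). At an unadjusted limma P value alone 5 probes passed, beside 7.12%, and after adjustment 0 did, beside 3 probes (0.0107%) over the array. Without the array labelled KO1 the count was 3 genes (2 higher, 1 lower), and in the comparison with CRL mice 11 genes. Both comparisons use the same IF1-TG arrays, so their values are not independent of each other.

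**Figure D1:**
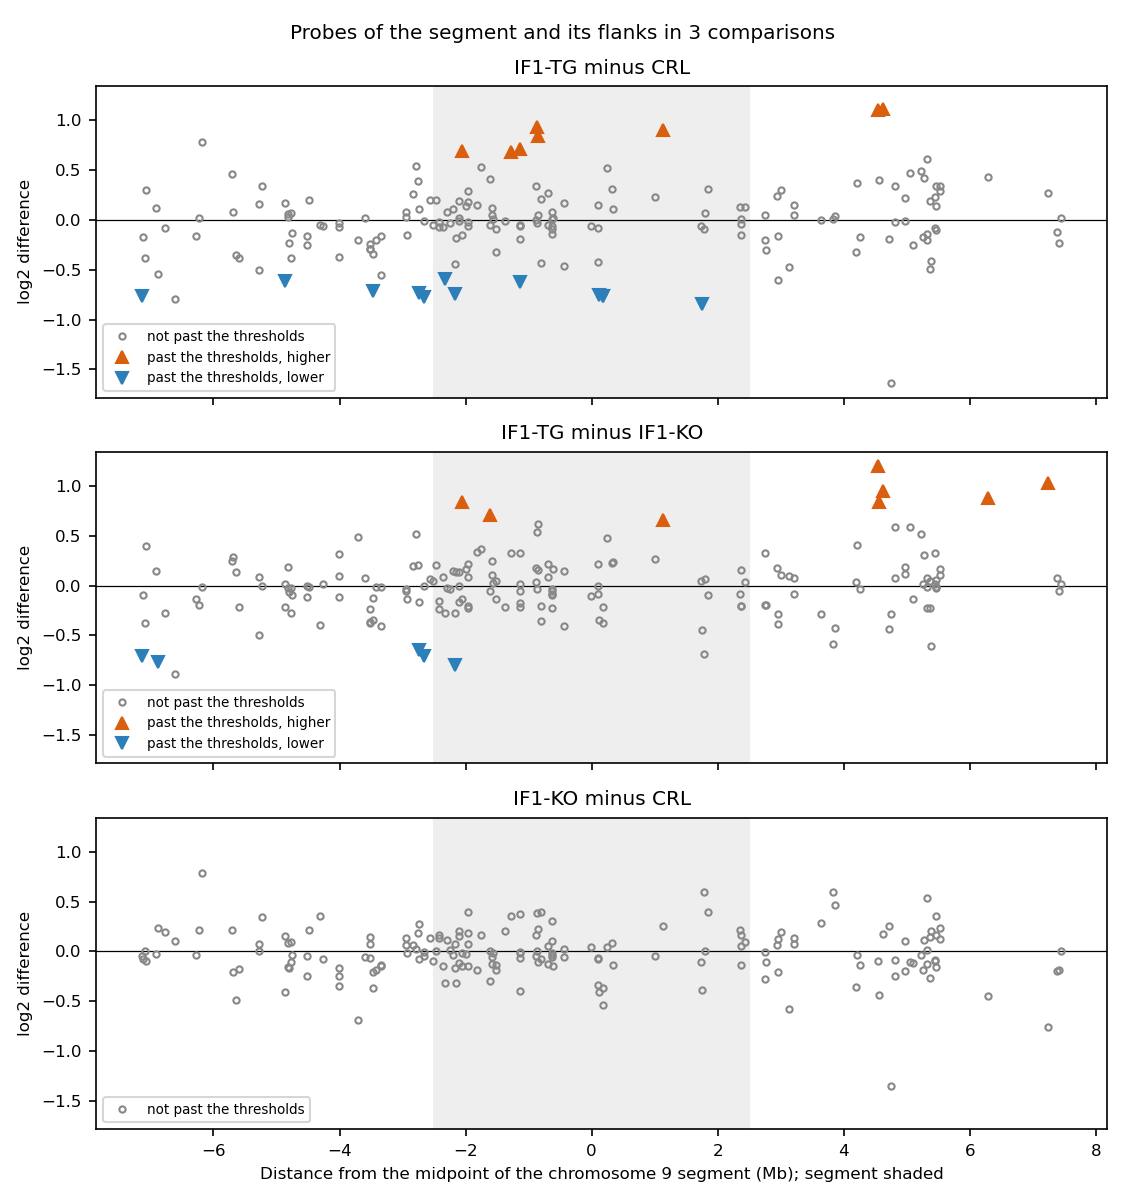
Log2 difference of each kept probe (vertical axis) against its distance in Mb from the midpoint of the window (horizontal axis, window shaded, flanks of 5 Mb on either side), in IF1-TG minus CRL, IF1-TG minus IF1-KO and IF1-KO minus CRL. Triangles mark probes past the thresholds, with 13 inside the window in the top panel, 4 in the middle panel and 0 in the bottom panel, while open circles mark all other probes.

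*Spg21*, *Pif1* and D930001M23Rik passed in both comparisons in the same direction. *Spg21* encodes maspardin, a protein of endosomes and the trans-Golgi network whose loss causes a hereditary spastic paraplegia. Its probe A_52_P219966 had log2 signals, set against the array's own 75th percentile, of -2.75, -1.90 and -1.85 in IF1-TG mice, -1.46, -1.60 and -1.24 in CRL mice, and -1.39, -1.28 and -1.42 in IF1-KO mice. All IF1-TG arrays lay below the other 6, and TG1 lay lowest. The log2 difference was -0.74 (standard error 0.23) against CRL and -0.80 (0.23) against IF1-KO mice, and without TG1 neither passed (-0.44 and -0.51). Without KO1 the difference from IF1-KO was -0.82. With slide as a fixed block, the values were -0.36 (0.33) and -0.38 (0.36). The second *Spg21* probe, 8 kb further along the gene, gave -0.44 (0.22) and -0.27 (0.22), with overlapping arrays.

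*Pif1* encodes a DNA helicase that acts at telomeres, replication forks and mitochondrial DNA. Its single probe gave -0.23, -0.38 and 0.14 in IF1-TG mice, -0.73, -0.55 and -1.27 in CRL mice and -0.83, -1.34 and -0.81 in IF1-KO mice. The IF1-TG arrays lay above all others, including the array of slide 2. The log2 difference was 0.69 (standard error 0.24) against CRL and 0.84 (0.24) against IF1-KO mice, and with slide as a fixed block it was 0.85 (0.26) and 0.84 (0.28), past the thresholds in both. Without KO1 the difference from IF1-KO was 0.92. Against CRL mice it did not pass without CRL3 (0.48) or TG3 (0.54), nor with normexp and quantile normalization. Against IF1-KO mice it passed under each of 18 alternatives, but not after adjustment of the P values. Some of the 18 left out a CRL array, which cannot change the difference from IF1-KO.

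D930001M23Rik is an unclassified mouse cDNA whose probe (chr9:68634130-68634189) lies between the 2 *Rora* probes, on the same strand, 122.2 kb from one and 592.6 kb from the other. Its signals were -3.32, -3.85 and -3.55 in IF1-TG mice, -4.06, -4.42 and -4.95 in CRL mice and -4.29, -4.32 and -4.08 in IF1-KO mice. Again the IF1-TG arrays lay above the other 6. The log2 difference was 0.90 (standard error 0.23) against CRL mice and 0.66 (0.23) against IF1-KO mice, and 0.82 (0.34) and 0.47 (0.37) with slide as a fixed block, where neither passed. The second value was 0.62 without the array labelled KO1, 0.61 without KO2 and 0.53 without TG1, past the thresholds in none of these fits.

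Among the genes that passed against CRL mice alone, *C2cd4a* and *C2cd4b* are paralogs that lie 69.9 kb apart on opposite strands and encode nuclear factors known to respond to inflammatory cytokines. The *C2cd4b* probe A_55_P2054261 gave -1.44, -1.36 and -0.44 in IF1-TG mice, -0.09, -0.51 and -0.39 in CRL mice and -0.76, -0.85 and -0.61 in IF1-KO mice. TG1 and TG2, both on slide 1, lay lowest, and TG3 lay among the CRL arrays of its slide. The difference from CRL was -0.75 (standard error 0.26), and the other probe of the gene gave -0.42 (0.27). The *C2cd4a* probe A_55_P2147896 gave -3.95, -4.11 and -3.28 in IF1-TG mice against -2.85, -3.36 and -2.87 in CRL mice, and the neighbouring probe A_55_P2147897 gave -3.72, -2.76 and -2.64 against -1.83, -2.63 and -2.40. Both *C2cd4a* probes differed by -0.76 (0.25 and 0.31). Within slide 2, the IF1-TG array differed from the CRL arrays by -0.14 for *C2cd4b* and by -0.18 and -0.41 for the *C2cd4a* probes, and from KO1, the array whose label *Atpif1* goes against, by 0.32, 0.35 and 0.21. With slide as a fixed block the differences from CRL were -0.12 (0.21), -0.16 (0.24) and -0.38 (0.45), and none passed. Against IF1-KO mice, the differences of -0.34, -0.38 and -0.21 over all arrays took the other sign with slide as a fixed block (0.28, 0.32 and 0.14). Single arrays also decided these calls. *C2cd4b* did not pass without CRL1 (-0.63), TG1 (-0.57) or TG2 (-0.61). The first *C2cd4a* probe did not pass without CRL1 (-0.67) or TG2 (-0.59), and the second without CRL1 (-0.53), CRL3 (-0.81), KO1 (-0.76) or TG1 (-0.42).

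Since the 2 paralogs lay lower together, the 250 bases before their transcription starts are shown from RefSeq (GRCm38.p6). Capitals mark matches to TATAAA (the TATA box), CCAAT (the CCAAT box), GGGCGG (the GC box), CACGTG (an E-box) and TGACGTCA (the cAMP response element), searched on both strands, as string matches and not as binding sites.
C2cd4a (chr9:67832331-67832580, minus strand): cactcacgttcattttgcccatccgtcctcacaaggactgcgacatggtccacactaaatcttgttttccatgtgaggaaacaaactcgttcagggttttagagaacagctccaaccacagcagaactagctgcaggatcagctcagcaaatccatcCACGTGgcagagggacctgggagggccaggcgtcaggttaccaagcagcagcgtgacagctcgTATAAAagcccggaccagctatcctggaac
C2cd4b (chr9:67759187-67759436, plus strand): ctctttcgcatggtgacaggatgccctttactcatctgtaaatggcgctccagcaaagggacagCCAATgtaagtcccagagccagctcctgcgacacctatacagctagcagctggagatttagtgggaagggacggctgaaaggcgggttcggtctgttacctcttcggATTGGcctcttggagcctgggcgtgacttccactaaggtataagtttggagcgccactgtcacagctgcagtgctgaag
The *C2cd4a* window held TATAAA (found in 13% of 27025 such windows, 1 per gene) and CACGTG (6.0%), and the *C2cd4b* window held CCAAT, once on each strand (34.5%). Neither held GGGCGG (32.9%) or TGACGTCA (1.6%), so the windows shared none of the 5 strings.

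*Clpx*, 1 of 3 mitochondrial genes of the window, gave -0.56, 0.43 and -0.07 in IF1-TG mice, 0.81, 0.43 and 0.32 in CRL mice and 0.21, 0.21 and 0.17 in IF1-KO mice. The IF1-TG arrays were spread wider than the difference and overlapped the CRL arrays. Its log2 difference was -0.59 (standard error 0.24) against CRL and -0.27 (0.24) against IF1-KO mice, which is close to the fold threshold, and it passed under 6 of 18 alternatives. It passed in neither fit that left out TG1 (-0.34) or CRL1 (-0.44), and it missed the P value with the same or a larger difference without CRL2 (-0.63), TG3 (-0.59) or any single IF1-KO array (-0.59 in each). Of the other mitochondrial genes, *Mtfmt*, which formylates the initiator methionyl-tRNA, gave 0.11 (0.14) and 0.15 (0.14), and *Lactb*, a filament-forming protein of the intermembrane space, gave 0.27 (0.17) and 0.22 (0.17) at its brighter probe, against CRL and IF1-KO mice. The other *Lactb* probe gave -0.05 (0.13) and 0.09 (0.13).

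*Fbxl22*, an F-box protein that gives substrate specificity to an SCF ubiquitin ligase, differed by -0.62 (standard error 0.23) from CRL and by -0.21 (0.23) from IF1-KO mice. Its kept probe was dim, above background on 2 of 3 IF1-TG arrays, and its IF1-TG values of -6.58, -6.55 and -5.99 overlapped the CRL values of -5.82, -5.41 and -6.05. It did not pass without CRL1 (-0.65), CRL2 (-0.44), TG1 (-0.51) or TG2 (-0.53). ENSMUST00000117246, a cDNA between *Rora* and *Ice2*, 28.3 and 25.0 kb from their probes, was also above background on 2 of 3 IF1-TG arrays. Its values of -5.95, -5.23 and -5.46 lay below all CRL arrays (-4.54, -4.80 and -4.77), with a difference of -0.84 (0.21). Against IF1-KO mice (-5.36, -4.82 and -5.11) the arrays overlapped and the difference was -0.45 (0.21).

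*Herc1*, the large HECT-domain ubiquitin ligase, gave different values at its 2 probes. The dim probe A_51_P167426 gave -3.02, -3.60 and -2.56 in IF1-TG mice, -3.62, -3.65 and -3.95 in CRL mice and -3.49, -3.45 and -3.23 in IF1-KO mice. The lowest IF1-TG array lay just above the highest CRL array. The difference from CRL was 0.68 (standard error 0.24) and from IF1-KO 0.33 (0.24), and with slide as a fixed block 1.15 (0.28) and 0.77 (0.30). The bright probe A_55_P2159600, at the 3′ side of the gene, gave 3.49, 3.59 and 3.52 in IF1-TG mice, 3.75, 3.54 and 3.49 in CRL mice and 3.47, 3.63 and 3.64 in IF1-KO mice, a difference of -0.06 (0.11) and -0.05 (0.11). The dim probe did not pass without CRL3 (0.57), TG1 (0.66) or TG3 (0.43).

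The unnamed probe A_55_P2159595 lies 2.2 kb beyond the bright *Herc1* probe on the same strand. Its values were -2.12, -2.53 and -2.58 in IF1-TG mice, -3.38, -2.98 and -3.00 in CRL mice and -2.65, -2.80 and -2.77 in IF1-KO mice. The 3 genotypes did not overlap, with CRL lowest and IF1-TG highest. It differed from CRL by 0.71 (standard error 0.17) and from IF1-KO by 0.33 (0.17), and did not pass without CRL1 (0.58) or TG1 (0.56). The other higher transcripts were ENSMUST00000168309, 8.9 kb from the nearest *Aph1b* probe on the same strand and annotated on the array as a predicted *Aph1b* variant, and ENSMUST00000098612, which lies 19.7 kb from *Aph1b* on the opposite strand. The former gave -5.26, -6.00 and -5.59 in IF1-TG mice, -6.30, -6.43 and -6.89 in CRL mice and -6.16, -6.82 and -5.47 in IF1-KO mice, where 2 of 3 arrays were above background. It lay above every CRL array, by 0.93 (0.34), and differed from IF1-KO by 0.54 (0.34). The latter gave -4.01, -5.07 and -4.11 in IF1-TG mice, -5.11, -4.87 and -5.73 in CRL mice and -5.05, -5.10 and -4.90 in IF1-KO mice, with TG2 among the other arrays, and differed by 0.84 (0.31) and 0.62 (0.31). ENSMUST00000168309 did not pass without CRL3 (0.75), TG1 (0.75) or TG3 (0.91), and ENSMUST00000098612 without CRL3 (0.59), TG1 (0.65) or TG3 (0.70).

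*Csnk1g1*, a membrane-bound casein kinase 1, passed against IF1-KO mice alone and at 1 of its 2 probes. A_65_P13270 gave -1.52, -1.70 and -1.41 in IF1-TG mice, -1.65, -1.81 and -2.40 in CRL mice and -1.96, -2.79 and -2.02 in IF1-KO mice. KO2 lay far below the rest, and the difference from IF1-KO was 0.71 (standard error 0.26) with it and 0.44 without it, and 0.86 without KO1. Neither did it pass without TG1 (0.70) or TG3 (0.64), and against CRL mice it was 0.41 (0.26). The brighter probe A_55_P2016685, 2 kb downstream, held between -0.06 and 0.25 on all 9 arrays, with differences of -0.05 (0.11) in both comparisons.

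**Figure D2:**
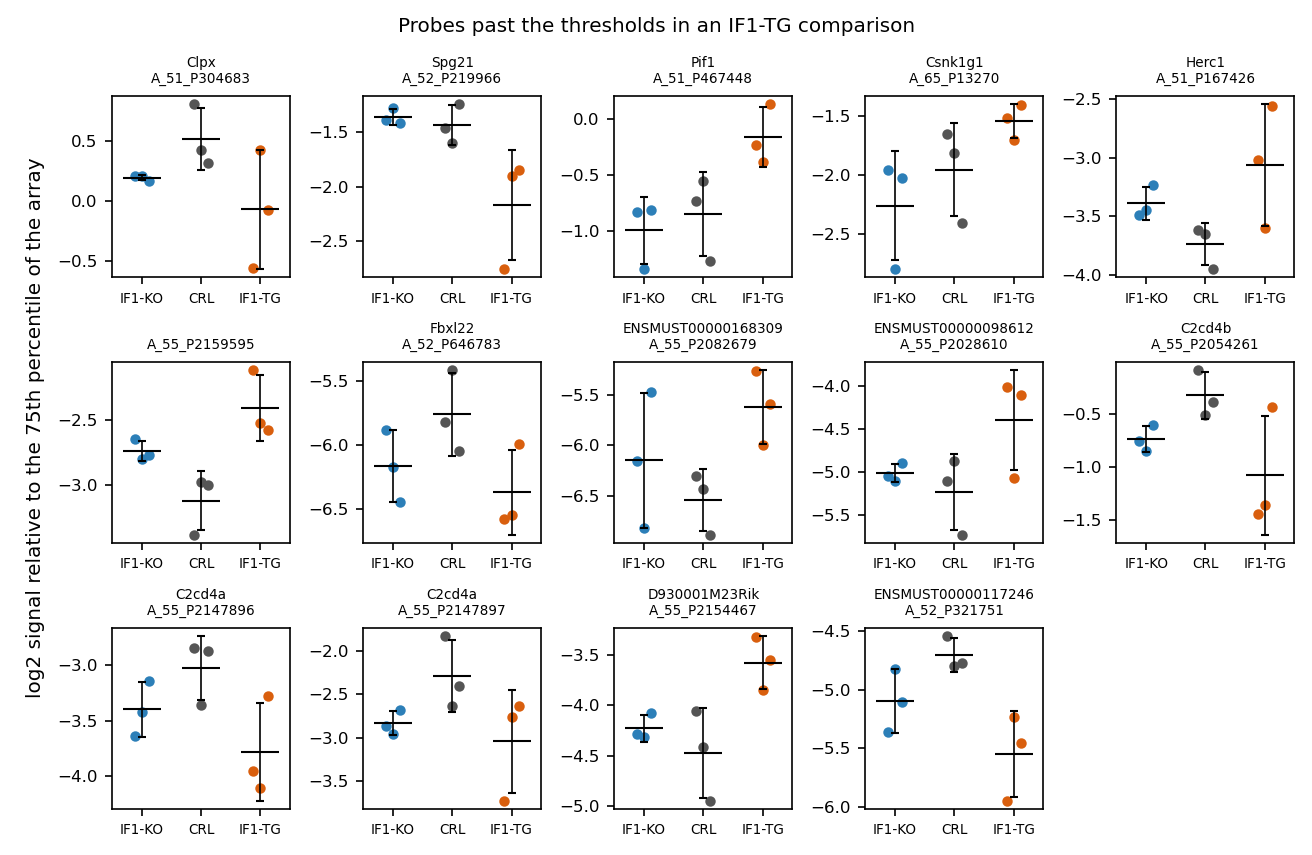
Log2 signal minus the array's own 75th percentile (vertical axes, a scale of its own in each panel) for the 14 probes of the window past the thresholds in either IF1-TG comparison. Points are single arrays in order of replicate from left to right (blue IF1-KO, grey CRL, orange IF1-TG), and black bars give the mean and SD of 3 arrays. In *Spg21*, *Pif1* and D930001M23Rik the IF1-TG points lie apart from all others, and in *C2cd4b* the third IF1-TG point lies with the CRL points.

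**Figure D3:**
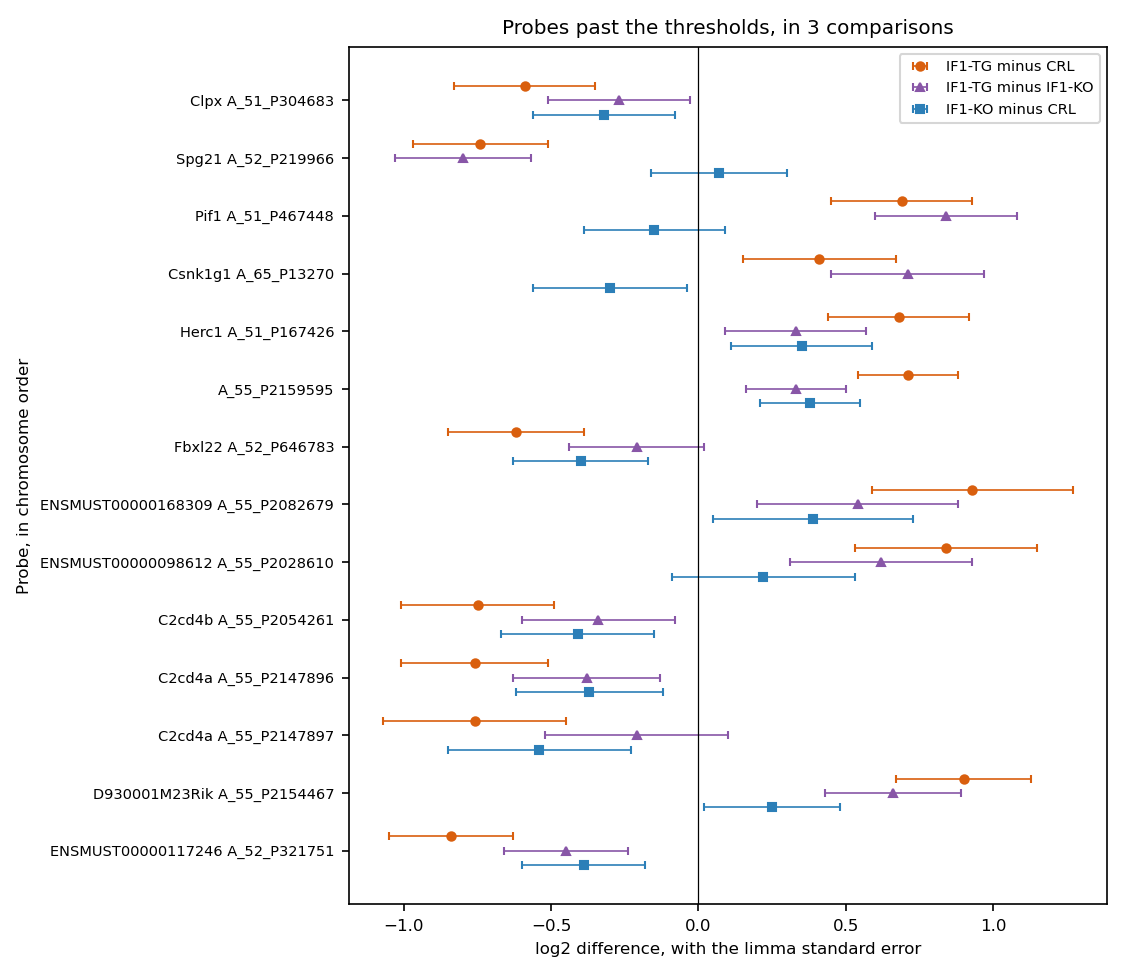
Log2 difference with the limma standard error (horizontal axis) in IF1-TG minus CRL (circles), IF1-TG minus IF1-KO (triangles) and IF1-KO minus CRL (squares) for the same 14 probes, in chromosome order. *Pif1* and *Spg21* lie on opposite sides of 0 in the IF1-TG comparisons, with IF1-KO minus CRL values of -0.15 and 0.07.

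When slide entered as a fixed block, 3 among the 17 probe results past the thresholds (13 against CRL and 4 against IF1-KO) passed again, *Pif1* in both comparisons and the dim *Herc1* probe against CRL. The difference itself moved by over 1.5 times in 8 of the 17, and of the 9 that moved less, 7 no longer passed. The block also brought 3 genes past the thresholds in both comparisons that had passed in neither, *Vps13c*, *Rab8b* and ENSMUST00000061766, and *Herc1* against IF1-KO, while 8.02% of all probes passed against CRL and 5.14% against IF1-KO. Of these, ENSMUST00000061766 was kept through CRL mice alone, and most of its IF1-TG and IF1-KO arrays were not above background. Within slide 2 alone, where TG3 meets CRL1, CRL2 and KO1, the 13 differences from CRL ranged from -0.79 for ENSMUST00000117246 to 1.07 for *Herc1*. Each had the sign of the full comparison, but the 13 probes were chosen from that comparison, which holds these same arrays. The shared sign therefore supports nothing by itself. Differences from KO1, whose label *Atpif1* goes against, were 0.97 for *Pif1*, -0.46 for *Spg21*, 0.74 for D930001M23Rik and 0.54 for *Csnk1g1*. With TG3 as the only IF1-TG array these values carry no test.

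The members fixed for their known roles are ordered here by role, with the value at the brightest probe. In membrane traffic, *Snx1*, a sorting nexin of the retromer pathway, was among the steadiest genes, at 2.03, 2.16 and 2.12 in IF1-TG mice, 2.22, 2.02 and 2.02 in CRL mice and 2.20, 2.01 and 2.01 in IF1-KO mice. Its differences were 0.01 (standard error 0.11) and 0.03 (0.11). *Rab8b*, a small GTPase of exocytic transport, gave 1.99, 1.38 and 1.47 in IF1-TG mice, 1.53, 0.68 and 2.02 in CRL mice and 1.63, 1.88 and 1.92 in IF1-KO mice, so that CRL2 stood lowest and the genotypes overlapped. It differed by 0.21 (0.32) from CRL and by -0.20 (0.32) from IF1-KO, and its second probe by -0.43 (0.25) and -0.35 (0.25). With slide as a fixed block, the second probe passed in both comparisons, at -0.92 (0.31) and -0.85 (0.34). *Vps13c*, which transfers lipids where the endoplasmic reticulum meets late endosomes, gave -3.61, -3.43 and -3.19 in IF1-TG mice, -3.46, -3.94 and -3.74 in CRL mice and -3.53, -3.69 and -3.70 in IF1-KO mice. Its difference from CRL was 0.31 (0.16), with 0.52 (0.26) and 0.11 (0.46) at the other 2 probes, and none passed. With slide as a fixed block, the probe at 0.52 (A_51_P356822) passed in both comparisons, at 0.96 (0.28) and 0.82 (0.30). *Snx22* differed by 0.05 (0.12) and 0.11 (0.12).

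The 3 genes of the cytoskeleton and cell adhesion did not pass. *Tpm1* encodes tropomyosin, which coats actin filaments, and its 5 probes differed from CRL by -0.14 to 0.08. At the brightest probe it gave 2.28, 2.41 and 2.00 in IF1-TG mice, 2.44, 2.31 and 2.34 in CRL mice and 2.36, 2.22 and 2.34 in IF1-KO mice. *Tln2* gave 1.40, 0.59 and 0.83 in IF1-TG mice, 1.47, 1.38 and 1.37 in CRL mice and 1.00, 1.64 and 1.40 in IF1-KO mice. TG2 and TG3 lay below every other array and TG1 among the CRL arrays, with a difference of -0.46 (standard error 0.23) from CRL and -0.41 (0.23) from IF1-KO. The other *Tln2* probe gave 0.17 (0.15) and 0.15 (0.15). *Anxa2*, a calcium-dependent phospholipid-binding protein, gave 1.01, 1.09 and 0.82 in IF1-TG mice, -0.14, 1.13 and 1.02 in CRL mice and 1.90, 0.59 and 0.72 in IF1-KO mice. The control and knockout arrays were spread widely around the IF1-TG arrays, and the differences were 0.31 (0.41) and -0.09 (0.41).

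Among kinases and signalling genes, *Dapk2*, a calcium/calmodulin-regulated death-associated kinase, gave -3.84, -3.49 and -3.91 in IF1-TG mice, -4.17, -3.47 and -3.59 in CRL mice and -3.66, -3.16 and -3.79 in IF1-KO mice. Its differences were -0.01 (standard error 0.24) and -0.21 (0.24). *Bnip2*, a scaffold protein that binds Bcl2, gave 2.14, 2.09 and 2.03 in IF1-TG mice, 1.76, 2.13 and 1.99 in CRL mice and 2.16, 2.22 and 2.13 in IF1-KO mice. It differed by 0.13 (0.12) and -0.08 (0.12). *Rasl12* (-0.03, standard error 0.13, in both comparisons) and the 3 *Plekho2* probes (-0.01 to 0.19 against CRL) lay near 0 as well. *Usp3*, which removes ubiquitin from histones, gave -0.68, -0.94 and -1.14 in IF1-TG mice, -0.75, -0.89 and -0.97 in CRL mice and -0.87, -1.06 and -0.91 in IF1-KO mice. The genotypes overlapped, with -0.05 (0.14) and 0.02 (0.14), and its other probe gave -0.19 (0.27) and -0.17 (0.27).

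In the nucleus, *Rora* gave 0.23, 0.29 and 0.11 in IF1-TG mice, 0.36, 0.50 and -0.04 in CRL mice and 0.34, 0.22 and -0.07 in IF1-KO mice. The difference was -0.06 (standard error 0.17) from CRL and 0.05 (0.17) from IF1-KO, and 0.23 (0.25) and 0.27 (0.25) at the dim upstream probe. The spread of *Rora* was thus wider than its differences, although D930001M23Rik, between its probes, passed in both comparisons. 2810417H13Rik, now *Pclaf*, a PCNA-binding factor of DNA replication, differed by 0.53 (0.33) and 0.37 (0.33), with TG1 highest at 3.76. *Ice2*, of the little elongation complex of snRNA transcription, differed by -0.09 (0.37) from CRL and by -0.69 (0.37) from IF1-KO, where the arrays did not overlap and the fold threshold was reached, but not that on the P value. *Trip4*, a transcriptional coactivator, gave 0.15 (0.15) and 0.34 (0.15). *Pdcd7*, *Rbpms2*, *Zfp609* and the 3 probes of *Gtf2a2*, a subunit of the general factor TFIIA, differed from CRL by -0.15 to 0.14 and passed in neither comparison.

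*Ppib*, the cyclophilin that assists protein folding in the endoplasmic reticulum, gave 3.82, 3.53 and 3.61 in IF1-TG mice, 3.64, 3.69 and 3.25 in CRL mice and 3.63, 3.37 and 3.20 in IF1-KO mice. It differed by 0.12 (standard error 0.17) and 0.25 (0.17). *Parp16*, an ADP-ribosyltransferase of the endoplasmic reticulum, gave -0.02 (0.11) and -0.15 (0.11), and Fam96a, now *Ciao2a*, which delivers iron-sulfur clusters to cytosolic proteins, -0.32 (0.25) and -0.13 (0.25). *Aph1b* gave 0.35, 0.10 and -0.09 in IF1-TG mice, -0.58, -0.09 and 0.00 in CRL mice and 0.26, -0.66 and 0.21 in IF1-KO mice, an overlap in which CRL1 and KO2 were low. Its differences were 0.34 (0.27) and 0.18 (0.27), and its other probe gave -0.03 (0.14) in both. *Aph1c*, its close relative, had no probe of that name in the window and is not analysed here. *Car12*, a carbonic anhydrase of the cell surface, gave 2.45, 1.30 and 1.15 in IF1-TG mice, 0.75, 2.40 and 1.75 in CRL mice and 1.24, 1.24 and 2.28 in IF1-KO mice, and differed by 0.00 (0.50) and 0.04 (0.50). *Lactb* gave 0.58, 0.99 and 0.62 in IF1-TG mice, 0.16, 0.66 and 0.57 in CRL mice and 0.52, 0.58 and 0.44 in IF1-KO mice, with TG2 highest.

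**Figure D4:**
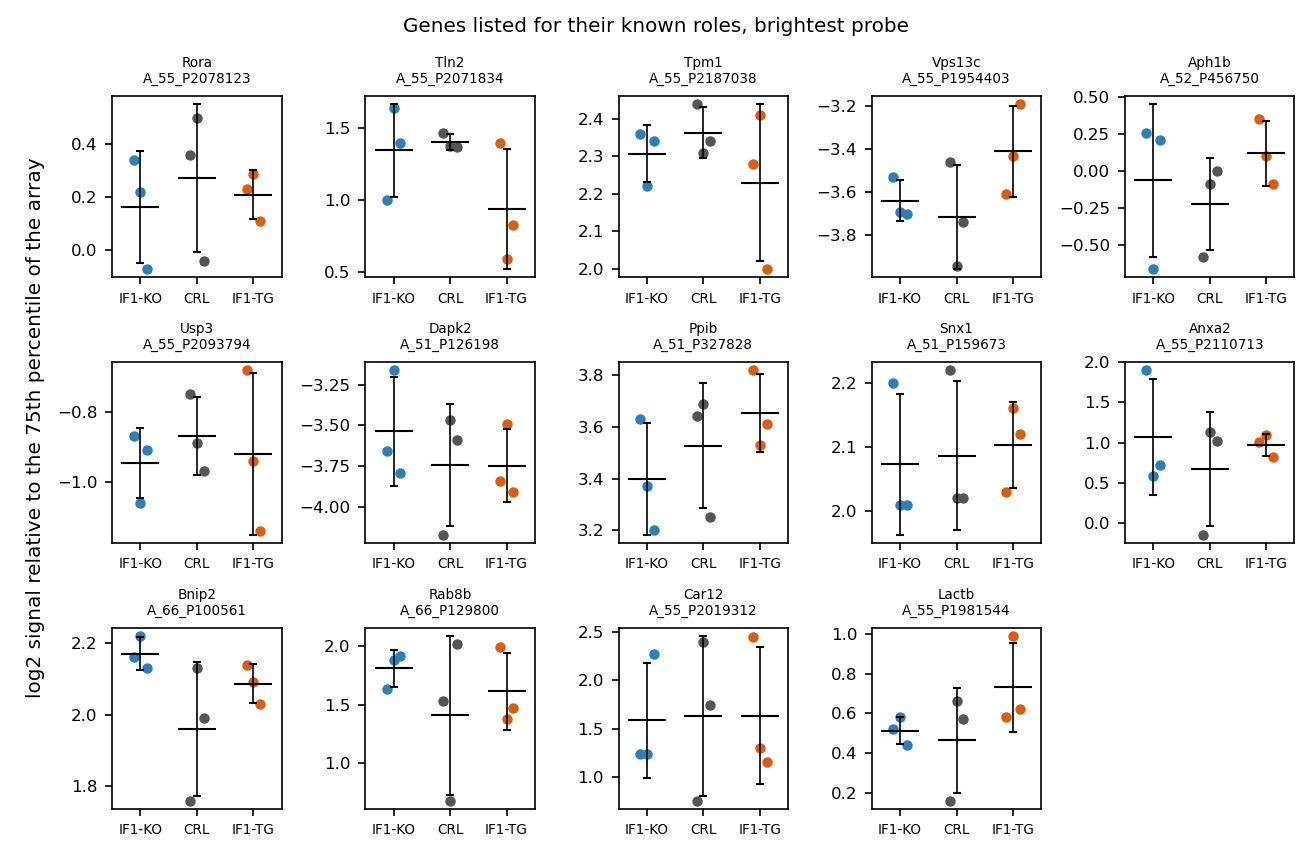
Log2 signal minus the array's own 75th percentile (vertical axes, a scale of its own in each panel) at the brightest probe of 14 genes listed for their known roles. Points are single arrays in order of replicate (blue IF1-KO, grey CRL, orange IF1-TG) and black bars the mean and SD of 3 arrays, with *Snx1* spanning 2.01 to 2.22 and *Car12* spanning 0.75 to 2.45 over the 9 arrays.

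Of the remaining members, *Oaz2*, an ornithine decarboxylase antizyme of polyamine control, lay higher in IF1-TG mice on every array (5.44, 5.29 and 5.33, against 5.14, 5.22 and 4.83 in CRL and 5.14, 5.11 and 5.16 in IF1-KO mice). The difference of 0.29 (standard error 0.13) from CRL and 0.22 (0.13) from IF1-KO lay below the fold threshold, and the other *Oaz2* probe gave 0.18 (0.23) and -0.22 (0.23). *Igdcc3* and *Fam81a* were higher than CRL by 0.20 (0.18) and 0.13 (0.22). Without a current gene name, NAP114291-1 (0.15), ENSMUST00000071565 (0.07) and BC050972 (0.05) were higher than CRL, and A_55_P2076543 (-0.15), ENSMUST00000061766 (-0.18), TC1657454 (-0.09), ENSMUST00000155424 (-0.07), A_55_P2114034 (-0.06) and the long non-coding RNA M5C1000I18Rik (-0.08) were lower, none past the thresholds. ENSMUST00000061766, above background on 1 of 3 IF1-TG and 1 of 3 IF1-KO arrays, was kept through CRL mice alone. It ranged from -5.30 in TG1 to -8.29 in TG3, and with slide as a fixed block it passed at -1.82 (0.61) and -1.71 (0.66). These values rest largely on arrays not above background and support nothing by themselves. In all, 39 of the 52 detected genes passed in neither IF1-TG comparison.

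By role, some groups held genes past the thresholds against CRL and others held none, and how they fell among the groups was not tested. Of 5 membrane traffic genes, 1 passed against CRL (*Spg21*, lower), of 3 mitochondrial genes 1 (*Clpx*, lower), of 3 detected ubiquitin genes 2 (*Herc1* higher, *Fbxl22* lower), of 11 detected nuclear genes 3 (*Pif1* higher, *C2cd4a* and *C2cd4b* lower) and of 14 detected non-coding or unnamed members 5 (4 higher, 1 lower). Cytoskeleton, endoplasmic reticulum, kinase and membrane genes had 0 past the thresholds against CRL, where 2.83% of all gene names passed higher and 2.79% lower.

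Probes of the same gene often differed. Of 19 genes with several kept probes, all probes had the same sign against CRL in 9, 4 genes passed, and in 1 of these, *C2cd4a*, every kept probe passed. Of the 33 genes with a single kept probe, 8 passed. The *Herc1* probes lay 0.74 apart on the log2 scale, those of *Rab8b* 0.64 and those of *Tln2* 0.63. GC content of the 60 bases was 38.3% to 45.0% in the 6 probes higher in IF1-TG than CRL mice, 35.0% to 75% in the 7 lower ones (the GC-rich ones being those of *C2cd4a*) and 28.3% to 76.7% in the 64 others.

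The comparison of IF1-KO with CRL mice was not used to choose the window, and no member passed there. Of 77 probes, 0 reached the fold and unadjusted P value of the thresholds in limma, beside 1.06% of all probes and 1.34% of all gene names. The log2 differences ran from -0.54 at *C2cd4a* to 0.60 at *Ice2*, with a median of -0.02. At an unadjusted limma P value alone, 1 probe passed, A_55_P2159595 (0.38, standard error 0.17, unadjusted P = 0.0494 from limma, adjusted P = 1), beside 2.57% of all probes. The arrays of the genotypes did not overlap at 6 probes (2 higher, 4 lower), beside 8% over the array (3.93% higher and 4.06% lower). These were A_55_P2159595 and the dim *Herc1* probe, higher in IF1-KO, and *Clpx*, *C2cd4b*, *C2cd4a* A_55_P2147897 and ENSMUST00000117246, lower. The same CRL arrays enter the comparison with IF1-TG mice. *Herc1* differed by 0.35 (0.24), *C2cd4b* by -0.41 (0.26) and *C2cd4a* by -0.54 (0.31). For *Rora*, *Tln2* and *Snx1* the differences were -0.11 (0.17), -0.06 (0.23) and -0.02 (0.11). The lowest adjusted limma P value among the members was 1, and over the whole array 0.113. Without the array labelled KO1 the count stayed 0, without KO2 it was 1 and without CRL3 it was 2.

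On the flanks, passing probes lay on the lower side below the window and on the higher side above it, given as a description. From 60 to 65 Mb, 5 of 56 kept probes (8.93%) passed against CRL and 4 (7.14%) against IF1-KO, all lower in IF1-TG mice, beside 2.22% and 2.05% of all probes on the lower side. From 70 to 75 Mb, 2 of 48 (4.17%) and 5 (10.4%) passed, all higher, beside 2.24% and 1.73% of all probes on the higher side. Counted as genes over both flanks, 9 passed against IF1-KO with KO1 and 9 without it, 8 of them shared. Those below the window that passed in both comparisons were 9230112J17Rik (-0.76 and -0.71, standard error 0.17), *Dennd4a*, an exchange factor for Rab GTPases (-0.73 and -0.65, 0.23, at 1 of its 5 probes, the others at 0.11 to 0.54 against CRL), and Vwa9, now *Ints14*, of the Integrator complex (-0.77 and -0.71, 0.29). Vwa9 gave -1.43 and -1.70 on slide 1 but -0.39 on TG3, among the CRL values of -0.30, -0.47 and -0.45, and with slide as a fixed block its differences were 0.02 (0.18) and 0.07 (0.19). Those above the window were the unnamed probe A_55_P2156914 (1.10 and 1.20, 0.29) and LOC100048452 (1.11 and 0.95, 0.27). A_55_P2156914 likewise gave -4.00 and -3.90 on slide 1 and -5.15 on TG3, with CRL mice at -5.53, -5.45 and -5.36, and with slide as a fixed block its differences were 0.31 (0.16) and 0.41 (0.17), below the fold threshold. LOC100048452 gave -3.65, -4.31 and -3.27 against -4.67, -4.63 and -5.28, and the difference was 1.5 (0.33) with slide as a fixed block. In IF1-KO against CRL mice, 0 probes passed on either flank in limma, also at an unadjusted P value alone, and without KO1 3 genes passed, all lower in IF1-KO mice.

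None of the detected genes nearest to either edge of the window passed. Just inside the lower edge, *Igdcc3* and *Parp16* differed from CRL by 0.20 (standard error 0.18) and -0.02 (0.11), and just outside it *Igdcc4* and the peptidase gene *Dpp8* by -0.05 (0.11) and 0.20 (0.13). Just inside the upper edge, *Fam81a* and *Gtf2a2* differed by 0.13 (0.22) and 0.01 (0.12), and outside it *Myo1e*, a class I myosin, and the cyclin gene *Ccnb2* by 0.05 (0.13) and -0.20 (0.33). By 1-Mb bins from 65 Mb upward, 3 of 30, 5 of 23, 3 of 12, 1 of 2 and 1 of 10 probes passed against CRL, beside 4.47% over the array.

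A further 19 probes of the window were not above background on all 3 arrays of any genotype and were not tested. They include every probe of *Cilp*, *Ubap1l*, *Kbtbd13*, *Slc51b*, *Foxb1* and *Gcnt3*, of the long non-coding RNA 9530091C08Rik, and of ENSMUST00000160747, LOC102632690, AK133060, A_55_P1955247, NAP063249-1, A_55_P2122752, A_55_P2171391 and A_55_P2141820, as well as 1 of 2 probes each of 2810417H13Rik, *Fbxl22* and *Bnip2*. A_55_P2141820 came nearest, with 2 CRL arrays and 1 IF1-TG array above background. For these members no direction can be given.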

How the data were processed

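Each of 9 mice, 3 of each genotype, gave hippocampal RNA for its own Cy3-labelled Agilent gene array. The authors deposited Feature Extraction 10.7.3.1 files with processed spot intensity, corrected for background and spatial trend by the software and not normalized between arrays, along with mean and local background intensity. Groups and replicate numbers come from the sample labels, slides from the deposited array labels, and probe names and positions (mm9) from the deposited annotation.

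From the log2 of the deposited intensity, the 75th percentile over an array's non-control spots was subtracted. Spots the software marked as outliers were dropped, and the spots of each probe averaged. Of 39429 probes, 27991 were kept, namely those that all 3 arrays of some genotype showed well above background. No spot was saturated, and replicates correlated at 0.983 to 0.992. Precision is limited by the 3 arrays per genotype. All 9 arrays entered a limma 3.58.1 fit (R 4.3.3) with genotype. A probe passed when its fold change was 1.5 or more with P below 0.05 before adjustment, the criteria of the study's methods, which do not name the normalization. Steps were tested on simulated data. Adjusted P values are Benjamini-Hochberg over all kept probes.

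The window, its members, the gene lists and the role groups were chosen with earlier results of these data known. Values on every array are given for genes past the thresholds in both IF1-TG comparisons, for members in IF1-KO against CRL past them, and for Rora, Tln2, Tpm1, Vps13c, Herc1, Csnk1g1, Aph1b, Usp3, Dapk2, Ppib, Snx1, Anxa2, Bnip2, Rab8b, Car12, Lactb and Clpx (Aph1c was listed too, but no probe of that name lies in the window). Values on single arrays of *C2cd4a*, *C2cd4b*, *Fbxl22*, *Oaz2*, A_55_P2159595, ENSMUST00000117246 and, on the flanks, of Vwa9, A_55_P2156914 and LOC100048452 were added with the values already known. So were those of ENSMUST00000168309, ENSMUST00000098612, ENSMUST00000061766 and 2810417H13Rik. Genes with several probes are represented by the brightest, unless another passed. Marker lists covered hippocampal neurons, thalamus, striatum, choroid plexus, pituitary, blood, oligodendrocytes, microglia and astrocytes. Alternatives were normexp (offset 50) with quantile normalization, quantile normalization alone, 2 other filters, slide or replicate number as a block, fits of 2 genotypes, eBayes with trend and robust options, adjusted P values, and each array left out. Differences within slide 2 were added after seeing the data. RefSeq names and promoters (GRCm38.p6) were matched by accession or symbol, without its coordinates being set against mm9.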

Additional observations from a re-analysis of the deposited data

How the results depend on the processing

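Directions were followed for the probes of the window past the thresholds, in both IF1-TG comparisons, for the flanking genes past them in both, and for *Atpif1*. Those that turned were Vwa9, at 0.02 against CRL and 0.07 against IF1-KO with slide as a fixed block and at 0.12 against IF1-KO within slide 2, and, against IF1-KO mice, where they had not passed, *C2cd4b* A_55_P2054261 (0.28 with slide as a fixed block and 0.32 within slide 2), *C2cd4a* A_55_P2147896 (0.32 and 0.35) and *C2cd4a* A_55_P2147897 (0.14 and 0.21, and from -0.41 without TG3 to 0.13 without TG1). In IF1-TG against CRL mice, the 12 genes of the window became 2 with normexp and quantile normalization (*Spg21* and *C2cd4b*), 5 with slide as a fixed block (2 of them among the 12) and 0 after adjustment, and ranged from 5 to 11 with each array left out (7 without CRL1, 5 without TG1, 7 without TG3, 8 without CRL3). In IF1-TG against IF1-KO mice, the 4 genes became 5 with slide as a fixed block (1 of them among the 4), 0 after adjustment, and ranged from 2 to 8 (2 without KO2 or TG1, 8 without TG2). In IF1-KO against CRL mice, the 0 genes ranged from 0 to 2. On the flanks, the 7 genes against CRL became 12 without a filter on dim probes and 0 after adjustment, ranging from 4 (without CRL1) to 12 (without TG3). The 9 against IF1-KO became 17 without the filter, 4 with slide as a fixed block and 0 after adjustment, ranging from 4 (without KO2) to 16 (without TG3). The 0 in IF1-KO against CRL became 1 with quantile normalization, 2 without the filter, 1 with slide as a fixed block, 2 with the replicate number as a block and 1 with only the genotypes compared, ranging from 0 to 4 (3 without KO1, 4 without KO3). The difference of *Atpif1* between IF1-KO and CRL mice, -0.56 (standard error 0.27, unadjusted P = 0.0725 from limma), ranged from -0.91 to -0.30 with each array left out. The value of -0.91 came from the fit without KO1. That array was singled out by this same gene, so the larger difference follows from the choice and supports nothing by itself. The share of all probes that passed changed with the setting too, as given above for slide as a fixed block. Gene counts under a changed setting or without an array, here and above, therefore describe each fit and are not read as a trait of the members. The cause of the shifts between settings was not tested.

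Replicate numbers are shared by the groups, but samples of the same number did not deviate together (correlations from -0.17 to 0.12). With the replicate number as a block, the counts in the window were 10, 4 and 0 against 12, 4 and 0, and on the flanks against CRL 6 and against IF1-KO 11. Dim members are limited by signal over background, and 71 of the 77 kept probes were above background on all 9 arrays.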

Other observations

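The other marker lists gave these summed linear signals, from the lowest to the highest array. Astrocyte markers gave 20.5 to 23.4 in IF1-KO, 22.2 to 24.2 in CRL and 22.5 to 23.9 in IF1-TG mice, and microglia markers 21.9 to 23.8, 24.8 to 25.9 and 25.2 to 26.5. Blood markers gave 16.1 to 36.0, 7.47 to 154 and 13.1 to 29.8. Oligodendrocyte markers gave 80.0 to 117 in IF1-KO, up to 140 in CRL and 117 to 145 in IF1-TG mice, with median log2 differences of -0.27 in IF1-KO minus CRL, 0.26 in IF1-TG minus IF1-KO and -0.01 in IF1-TG minus CRL and 0 of 6 past the thresholds in each. Striatum markers gave 6.63 to 7.89, 7.52 to 12.2 and 6.49 to 12.2, with *Adora2a* at a log2 difference of -0.96 in IF1-TG minus CRL. Pituitary markers gave 0.657 to 0.789 in IF1-KO, 0.518 to 0.70 in CRL and 0.477 to 0.808 in IF1-TG mice, so their sums overlapped. In that list *Gh* and *Prl*, above background on 3 of 9 arrays, passed the filter through CRL mice alone, where they were high. They passed the thresholds on the lower side in both IF1-TG and IF1-KO against CRL mice, which sets CRL against arrays at background and supports nothing by itself. *Pomc*, above background on all 9, differed by 0.31 in IF1-TG minus CRL. Of the 5 detected thalamus markers, 1 passed in IF1-TG against CRL mice, and the differences ran from -0.05 (*Prkcd*) to 1.10 (*Tnnt1*) with a median of 0.30. The part of any of these in the values of the chromosome 9 genes was not tested.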
